A study of Glycine max with 12 samples.

Results

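The genes described here are the soybean genes whose deposited description names pectin, pectate or a pectin esterase, with proteins that inhibit polygalacturonases left out. The rule found 120 genes of 30459, and all 120 were tested. They were measured by RNA sequencing of 12 libraries of young soybean leaf, cultivar AG1631, from field plots near Brookings in 4 seasons, 2008 to 2011. Each library was made from newly emerged trifoliates under 2 cm long, pooled from at least 8 plants of 1 plot at the V3 growth stage. By inference from the labels, rows were 76 cm apart in replicate 1, which is the one plot per treatment of 2008 and 2009 and the first of 2010 and 2011, and 18 cm apart in replicate 2 of 2010 and 2011, so plots of the same treatment and season also differed in spacing. Of the 6 control plots, 1 was treated with S-metolachlor in 2008, 1 with sethoxydim in 2009, 2 with glyphosate in 2010 and 2 with glyphosate, S-metolachlor, sethoxydim and imazethapyr in 2011. The 6 weedy plots shared their ground with velvetleaf and buckwheat in 2008 (1 plot, near 300 weeds per square metre) and 2009 (1 plot, near 48), with flax in 2010 (2 plots, near 600), and with velvetleaf and common sunflower in 2011 (2 plots, near 160). Herbicide and weeds differed together between the groups and cannot be told apart, and the 2009 label dates its herbicide to June 26, after the sampling of June 25. Weed species, herbicide, weather and anything else that changed between years also cannot be told apart from season.

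Pectin is the gel-like polysaccharide of the primary wall and of the layer that glues plant cells together. Its main chain, homogalacturonan, reaches the wall with methyl and acetyl groups. Pectin methylesterases remove the methyl groups, after which the chain can be stiffened by calcium or cut by polygalacturonases and pectate lyases. Inhibitor proteins bind methylesterases and block them, and pectin acetylesterases remove the acetyl groups. In growing leaves these enzymes are known for a part in cell expansion, cell separation and the opening of stomata.

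The descriptions divide the 120 genes into 61 pectin lyase-like proteins, 2 pectate lyases, 28 members of the family of invertase and methylesterase inhibitors, 8 methylesterases with a number or name of their own, 1 methylesterase inhibitor and 20 acetylesterases. The Arabidopsis gene that the deposited table pairs with each one gives a different picture. By that match 38 genes were polygalacturonases, 16 pectate lyases, 32 pectin methylesterases, 14 inhibitors and 20 acetylesterases. All 38 polygalacturonases, 14 of the pectate lyases and 9 of the methylesterases came from the pectin lyase-like group, so that name covers several enzyme classes. No separate class of pectin lyases was set up. Another 15 methylesterases were described under the inhibitor family, a family that methylesterases with an inhibitor-like leading domain share. The 14 inhibitors may act on methylesterases or on invertases, which the table does not separate. The 120 genes had 57 different Arabidopsis matches, and 22 of these matched a single soybean gene. Reads of near-identical copies may have been split between them in the authors' quantification, so values of single copies are uncertain to that degree.

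The deposited values are log2 FPKM, fragments scaled to transcript length and library size, so they can be compared between genes per length. A difference of 1 on this scale is a 2-fold difference. Mean log2 levels of the 120 genes ran from 0.92 to 6.03 with a median of 2.62, against a median of 3.21 for all genes tested. The highest mean levels were those of the polygalacturonase Glyma18g47130 at 6.03, the acetylesterase Glyma16g17190 at 6.02 and Glyma01g41820, a match to the Arabidopsis methylesterase PME5, at 5.99. Median mean levels were 2.81 for pectate lyases, 2.61 for acetylesterases, 2.60 for methylesterases, 2.50 for polygalacturonases and 2.05 for inhibitors. The median range over the 12 libraries was 1.50 log2 units for the 120 genes and 1.01 for all genes. Among genes with a mean level of at least 2, the steadiest polygalacturonase, Glyma13g17170, stayed between 4.81 and 5.32, and the steadiest acetylesterase, Glyma02g00930, between 4.53 and 5.03. The widest ranges were those of the polygalacturonase Glyma15g13360, from 0 to 4.98, the acetylesterase Glyma16g17150, from 1.02 to 4.97, the polygalacturonase Glyma08g39340, from 2.35 to 6.09, and the methylesterase Glyma15g20550, from 1.34 to 5.08.

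Libraries of the same season and treatment differed by a median of 0.21 log2 units over the 120 genes, libraries of 1 season and different treatment by 0.31, and libraries of different seasons by 0.55. The same medians over all genes were 0.15, 0.19 and 0.34. Weedy replicate 2 of 2010 stood apart within its season. It was the highest or the lowest of the 4 libraries of 2010 for 93 of the 120 genes, 77.5% against 70% of all genes. Its median difference from the other weedy library of 2010 was 0.33 over the 120 genes and 0.24 over all genes. Among the libraries of 2011, control replicate 2 was highest or lowest for 83 of the 120 genes, 69.2% against 59.1% of all genes. Weedy replicate 2 of 2011 was so for 75, 62.5% against 53.7%. The label of weedy replicate 2 of 2011 calls one of its read files corrupt, and no source says how the library was handled after that. The summed log2 level of 10 leaf photosynthesis genes was high in every library, at 12.41 to 14.21. Single genes among them ran lower, such as Glyma02g08910 at 3.18 to 5.83 and Glyma05g08590 at 3.57 to 10.55. No pollen marker gene was found in the deposited data. Markers of the secondary wall of vessels and fibres, 22 genes, lay between 7.66 and 8.64. Dividing-cell markers, 10 genes, lay between 6.93 and 8.34, and the 2 genes found for shoot meristem between 1.45 and 2.39. The single floral gene found was listed between 0 and 4.82. In these bulk samples fewer cells of a type and less RNA per cell cannot be told apart.

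The first season differed from the later ones in many of these genes, mostly upward. Of the 120 genes, 50 were higher and 15 lower in the 2 libraries of 2008 than in the 10 libraries of 2009 to 2011 (limma, adjusted p under 0.05 over all genes tested). That makes 54.2% called, close to the 51.9% called among all genes. Leaving out either library of 2008 lowered these counts and also the calls over all genes, but leaves 1 library of that season. The directions were unequal in the main fit: 41.7% were higher against 24.6% of all genes, and 12.5% lower against 27.3%. The median difference was 0.28 log2 units for the 120 genes and -0.02 for all genes. In 40 of the 120 genes, 33.3% against 18.4% of all genes, both 2008 libraries lay above all 10 later libraries. Calls were higher and lower in 16 and 4 polygalacturonases, 7 and 2 pectate lyases, 11 and 5 methylesterases, 6 and 2 inhibitors, and 10 and 2 acetylesterases.

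Seasons 2010 and 2011 differed in a similar number. In the 4 libraries of 2011, 48 of the 120 genes were higher and 16 lower than in the 4 of 2010, 53.3% called against 41.2% of all genes. Higher calls made up 40% of the 120 genes against 20.5% of all genes, and lower calls 13.3% against 20.7%. The median difference was 0.41, against -0.02 over all genes. All 4 libraries of 2011 lay above all 4 of 2010 in 45 of the 120 genes, 37.5% against 18.5% of all genes. Acetylesterases had 13 higher and 3 lower of 20, and polygalacturonases 16 higher and 2 lower of 38. Pectate lyases had 8 higher and 5 lower, methylesterases 9 and 4, and inhibitors 2 and 2. Without the weedy replicate 2 of 2010, 44 were higher and 12 lower. Without weedy replicate 2 of 2011, 41 were higher and 8 lower. Calls over all genes were 11268 and 9279 in these fits, against 12538 in the main fit. The median difference between these seasons was 0.19 in control plots alone and 0.56 in weedy plots alone, against -0.004 and -0.027 over all genes. Above 0 lay 81 and 87 of the 120 genes, beside 49.5% and 48% of all genes.

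**Figure D1:**
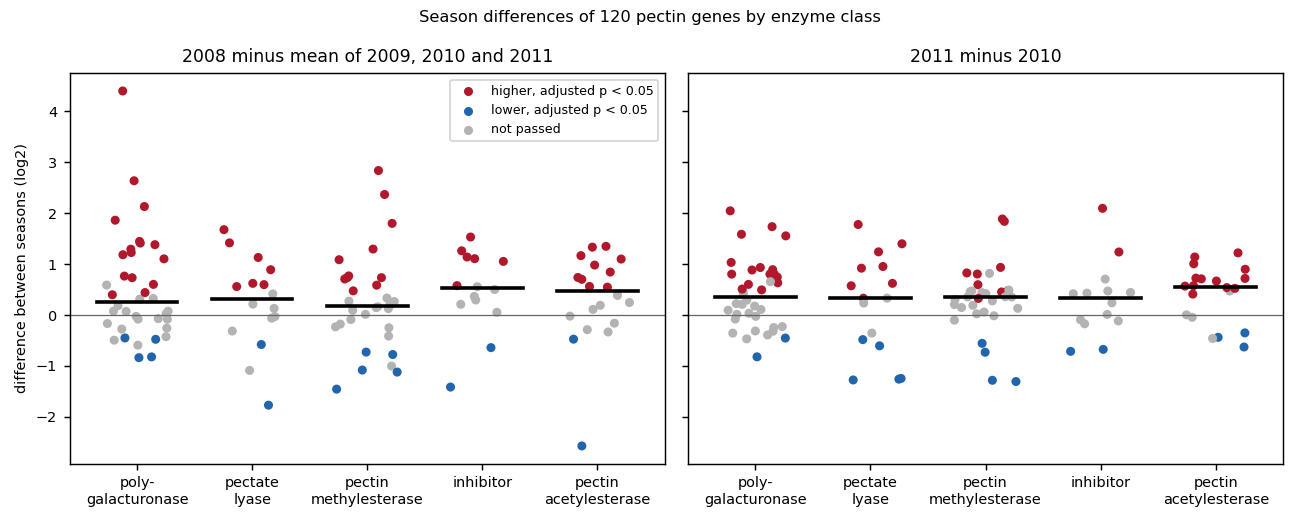
Difference between seasons in log2 units for each of the 120 genes by enzyme class, 2008 minus the later seasons (left) and 2011 minus 2010 (right). Each point is a gene, red and blue points passed at an adjusted p under 0.05, and black bars are class medians. All medians lie above 0, and the highest point on the left is Glyma15g13360 at 4.39.

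Marker genes of other cell states moved between the same seasons. Dividing-cell markers had a summed log2 level of 6.93 to 7.35 in 2008 and 8.07 to 8.34 in the later seasons, and 9 of 10 were lower in 2008, while 3 of 10 were lower in 2011 than in 2010. The single floral gene was higher in 2008 by 3.40, at 4.76 and 4.43, and did not pass in 2011 against 2010, at 0.26. It swung widely within later seasons, at 0 and 3.37 in control libraries of 2010 and 4.82 and 0 in those of 2011. Leaf photosynthesis markers lay at 14.18 to 14.21 in 2008, 13.71 to 13.91 in 2009, 12.41 to 13.20 in 2010 and 13.23 to 13.99 in 2011; 5 of 10 were higher in 2008 and 7 of 10 higher in 2011 than in 2010. Of the 22 secondary wall markers 12 were higher and 7 lower in 2008, and 13 higher and 1 lower in 2011 than in 2010. Of 8 epidermis and guard cell markers 2 were higher and 4 lower in 2008, and 3 were higher and 3 lower in 2011. Both genes found for the root list were higher in 2008 and in 2011, at a summed 5.23 to 5.35 in 2008, 3.18 to 3.95 in 2010 and 4.45 to 5.26 in 2011. The part of these markers in the season differences of the pectin genes was not tested.

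Among the polygalacturonases, which cut demethylated homogalacturonan, Glyma15g13360 had the largest season difference of the 120 genes. Its log2 level was 4.89 in the control and 4.98 in the weedy library of 2008. In 2009 it was listed at 0 in the control library and stood at 1.30 in the weedy one. The control libraries of 2010 held 0 and 0.09, the weedy libraries of 2010 0.08 and 0, the control libraries of 2011 0.16 and 0.07, and the weedy libraries of 2011 1.45 and 2.04. The gene was thus high in both plots of the first season, and in 2009 and 2011 it stood above 1 in weedy plots only. The difference of 2008 from the later seasons was 4.39 ± 0.35 (SE; limma adjusted p = 1.18e-05), and it rests in part on libraries listed at 0.

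Glyma08g39340, a polygalacturonase matched to AT1G60590, had 5.92 and 6.09 in the control and weedy libraries of 2008 and 2.89 and 4.10 in those of 2009. Its 4 libraries of 2010 lay between 2.35 and 2.56, the control libraries of 2011 at 3.88 and 3.41, and the weedy libraries of 2011 at 4.31 and 5.11. The seasons 2008, 2010 and 2011 did not overlap, with 2008 on top. It was 2.63 ± 0.29 (SE) higher in 2008 (limma adjusted p = 6.23e-05) and 1.73 ± 0.26 higher in 2011 than in 2010 (adjusted p = 0.000897). Glyma05g26390, a match to the Arabidopsis polygalacturonase PGX3, which acts in stomata there, rose in 2011 but did not differ in 2008 beyond its error. Its libraries of 2010 held 1.31, 0.87, 0.77 and 0.54, and those of 2011 held 2.69, 2.75, 3.05 and 3.18, a difference of 2.04 ± 0.25 (SE; limma adjusted p = 0.000341).

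Pectate lyases cut the same chain by another reaction, in the presence of calcium. Glyma13g20890, matched to AT3G53190, had the lowest season difference of this class. It stood at 1.49 and 1.29 in the 2 libraries of 2008, 3.98 and 3.52 in 2009, between 3.46 and 3.59 in 2010, and at 2.44 and 2.62 in the control and 2.26 and 1.62 in the weedy libraries of 2011. Both 2008 libraries lay under all later ones, and all libraries of 2011 lay under those of 2010. The differences were -1.77 ± 0.17 for 2008 (SE; limma adjusted p = 2.63e-05) and -1.26 ± 0.15 for 2011 against 2010 (adjusted p = 0.000313). Glyma11g37610, matched to AT1G67750, went the other way in 2011, with 4.76 to 5.10 in its 4 libraries against 3.54, 3.15, 3.42 and 2.49 in 2010. That difference was 1.77 ± 0.21 (SE; limma adjusted p = 0.000342).

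Pectin methylesterases open homogalacturonan to calcium or to cutting. Glyma19g32760, matched to AT1G05310, followed the seasons closely. It stood at 3.97 and 4.13 in 2008, 0.90 and 1.37 in 2009, 0.94 and 1.15 in the control and 1.29 and 0.79 in the weedy libraries of 2010, and 2.72, 2.71, 2.94 and 3.17 in 2011. Seasons 2008 and 2011 lay apart from each other and from the others, while 2009 and 2010 overlapped. It was 2.36 ± 0.15 (SE) higher in 2008 (limma adjusted p = 4.44e-06) and 1.84 ± 0.14 higher in 2011 than in 2010 (adjusted p = 2.49e-05).

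The methylesterase Glyma15g20550, matched to AT3G43270, had 4.76 and 5.08 in 2008, 1.93 in the control and 3.07 in the weedy library of 2009, 1.40 and 1.34 in the control and 1.77 and 1.40 in the weedy libraries of 2010, and 1.85 and 1.81 against 2.55 and 2.91 in 2011. It was 2.83 ± 0.20 (SE) higher in 2008 (limma adjusted p = 6.90e-06), and its weedy value was the higher one in each of the 6 sets of a weedy and a control plot with the same season and number, which held for 1 of the 120 genes, 0.833% against 2.88% of all genes. All 3 genes matched to AT2G26440, Arabidopsis PME12, were lower in 2008. One of them, Glyma13g17560, had 2.72 and 2.76 in 2008, 2.66 to 3.12 in 2010 and 4.59 to 5.09 in 2011, a rise of 1.88 ± 0.15 (SE) over 2010 (limma adjusted p = 3.89e-05). The other two fell in 2011: Glyma09g08920 by 1.28 ± 0.26 (SE; adjusted p = 0.00361) and Glyma15g20500 by 0.56 ± 0.20 (adjusted p = 0.0453). Glyma15g20500 also had the largest fall of the methylesterases in 2008, -1.45 ± 0.22 (SE; adjusted p = 0.000402), with 0.51 and 0.73 in that season. Glyma03g03460, matched to Arabidopsis PME17, was lower in 2011 by -1.30 ± 0.45 (SE; limma adjusted p = 0.0405), a call that 10 of the other settings lost at adjusted p-values of 0.0505 to 0.110. Its weedy libraries of 2011 held 0.29 and 0.65 and its control libraries 1.04 and 2.88, a wide spread within 1 season.

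Of the inhibitor family, Glyma09g36640, matched to AT5G62360, had the largest rise of the 120 genes from 2010 to 2011. It stood at 0.42 and 0.50 in control and 0.35 and 1.50 in weedy libraries of 2010, and at 2.60 and 2.29 in control and 2.89 and 3.36 in weedy libraries of 2011. Its difference was 2.09 ± 0.24 (SE; limma adjusted p = 0.000299), and in 2008, at 2.68 and 2.72, it was also higher, by 1.14 ± 0.27 (adjusted p = 0.0054). The 4 genes matched to AT3G17130 split in 2008, 3 of them higher and Glyma09g03850 lower. Glyma09g03850 held 0.79 and 0.88 in 2008, a difference of -1.41 ± 0.22 (SE; limma adjusted p = 0.000511).

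Among the acetylesterases, 10 were higher in 2008 and 13 in 2011 than in 2010, the largest share of any class in both. Glyma03g38430, matched to Arabidopsis PAE3, had 5.76 and 5.89 in 2008, 4.45 and 4.72 in 2009, 4.08 to 4.69 in 2010 and 4.85 to 5.31 in 2011. Its differences were 1.10 ± 0.17 (SE; limma adjusted p = 0.000486) for 2008 and 0.57 ± 0.15 (adjusted p = 0.0142) for 2011. Glyma16g17150, one of 6 genes matched to PAE8, had the largest fall of the 120 genes in 2008. It held 1.45 and 1.02 in 2008 and 4.97 and 3.58 in the control and weedy libraries of 2009. In 2010 it held 3.92 and 3.83 in control and 3.61 and 3.82 in weedy libraries, and in 2011 3.65 and 4.77 in control and 2.41 and 2.51 in weedy libraries. The 2008 difference was -2.57 ± 0.36 (SE; limma adjusted p = 0.000282). A neighbour in name and a match to the same Arabidopsis gene, Glyma16g17190, was the highest of the class on average, at 5.46 to 6.84, and was not called in 2008, at -0.16 ± 0.18 (SE; adjusted p = 0.470).

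**Figure D2:**
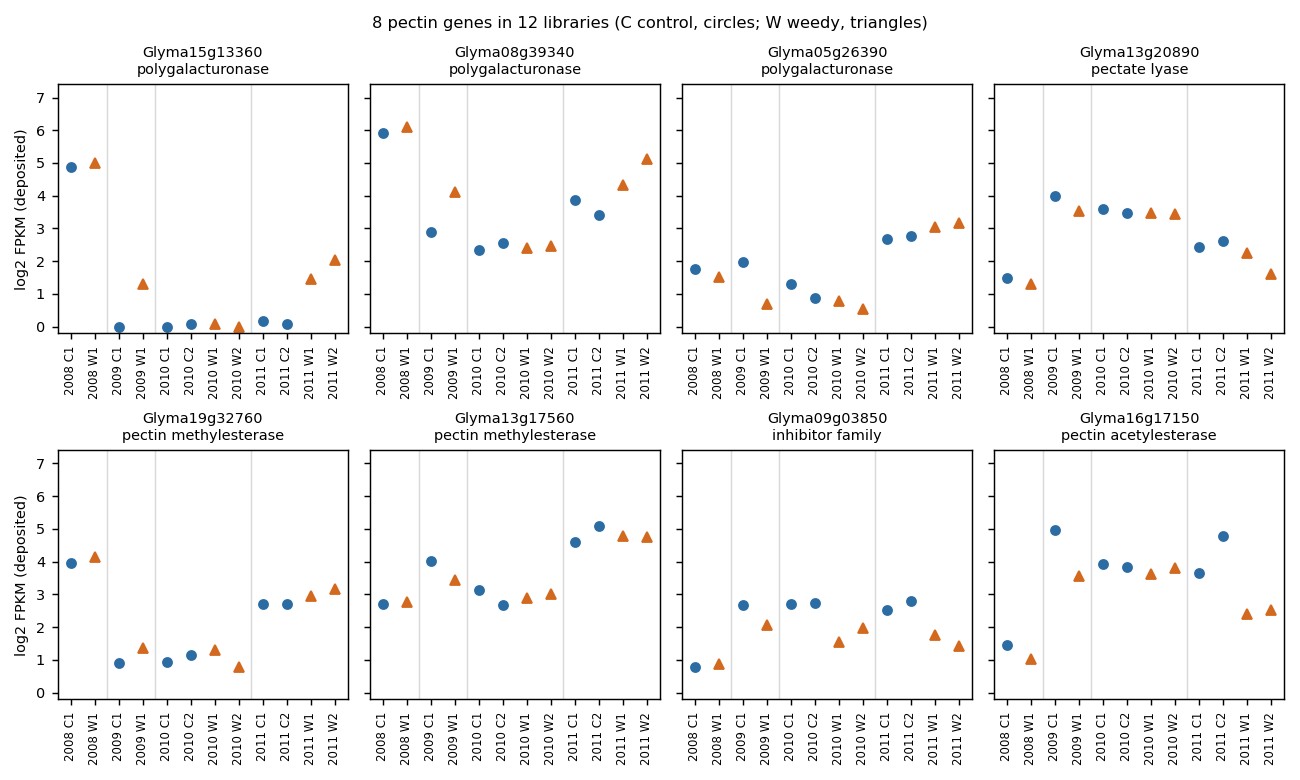
Deposited log2 FPKM of 8 pectin genes in each of the 12 libraries, with control libraries as blue circles and weedy libraries as orange triangles, and grey lines between seasons. Glyma15g13360 lies near 5 in 2008 and at or near 0 in all later control libraries, while Glyma16g17150 and Glyma13g20890 are lowest in 2008.

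Weedy and control plots were compared over all 12 libraries in a fit that also held the seasons. It estimated 1 mean weedy minus control difference, in which 2010 and 2011, with 2 plots per treatment, weigh more than 2008 and 2009. None of the 120 genes passed (limma, adjusted p under 0.05), nor did any of the 30456 genes tested, so 0% were called. At an unadjusted p under 0.05 there were 14 of the 120 genes, 11.7% against 10.8% of all genes. Of these 14, 9 were higher and 5 lower in weedy plots, and directions at that p were not counted for all genes. The smallest adjusted p among the 120 was 0.139. The values nearest to a call were those of the inhibitor Glyma09g03850, -0.77 ± 0.16 (SE), the methylesterase Glyma15g20550, 0.61 ± 0.15 (limma adjusted p = 0.166), the inhibitor Glyma15g14780, -0.64 ± 0.16 (0.181), the acetylesterase Glyma16g17150, -0.94 ± 0.27 (0.255), the polygalacturonase Glyma15g13360, 0.78 ± 0.26 (0.323), and the inhibitor Glyma09g36640, 0.57 ± 0.20 (0.352). When either library of 2008 was left out, 24 of the 30456 genes tested passed, 1 of them among the 120 genes. It was Glyma09g03850, at -0.94 with a limma adjusted p of 0.0490 or 0.0491. Its values outside 2008 were 2.69 against 2.08 in 2009, 2.71 and 2.74 against 1.55 and 1.98 in 2010, and 2.53 and 2.81 against 1.76 and 1.41 in 2011, control first. In those 3 seasons the weedy libraries all lay under the control libraries of the same season.

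Seasons 2010 and 2011 hold 2 plots per treatment and allow the weed contrast to be fitted within each. In neither did a gene pass (limma, 0% called among the 120 genes and among all genes). Both weedy libraries of 2011 lay above both control libraries in 53 of the 120 genes, 44.2% against 20.6% of all genes, and below them in 18, 15% against 27%. The median weedy minus control difference in 2011 was 0.18 log2 units for the 120 genes and -0.02 for all genes, and it was 0.18 between the plots in wide rows and 0.16 between those in narrow rows. An unadjusted p under 0.05 (limma) was reached by 29 of the 120 genes, 24.2% against 12% of all genes. Of these 29, 24 were higher, and the directions at that p were not counted for all genes. In 2010 the median was -0.07, at -0.05 between the plots in wide rows and -0.08 between those in narrow rows, which hold the library that stood apart. There 9 of the 120 genes reached an unadjusted p under 0.05, 7.5% against 8.64% of all genes, and both weedy libraries lay above both controls in 10 genes, 8.33% against 20.4%, and below them in 24, 20% against 17.9%.

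By class, median differences in 2011 were 0.39 for inhibitors, 0.18 for pectate lyases, 0.17 for methylesterases, 0.14 for acetylesterases and 0.14 for polygalacturonases. The test of the difference between the weed contrasts of 2011 and 2010 called 0 of the 120 genes and 0 of all genes. An unadjusted p under 0.05 (limma) was reached there by 32 of the 120 genes, 26.7% against 13.7% of all genes. Of these 32, 27 had the larger value in 2011, and the directions at that p were not counted for all genes. The median of that difference was 0.25 for the 120 genes and -0.03 for all genes. Photosynthesis markers moved beside this: their summed log2 level in 2011 was 13.99 and 13.98 in weedy and 13.55 and 13.23 in control libraries, and in 2010 it was 12.72 and 12.41 in weedy and 13.19 and 13.20 in control libraries. The 2 root-list genes had a summed level of 5.26 and 4.89 in weedy and 4.45 and 4.46 in control libraries of 2011, and 3.60 and 3.18 against 3.95 and 3.89 in 2010. Median weedy minus control differences of epidermis, dividing-cell and secondary wall markers were 0.45, -0.11 and 0.04 in 2010 and 0.07, -0.11 and -0.11 in 2011. The part of all these markers in the weed contrasts of the pectin genes was not tested.

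**Figure D3:**
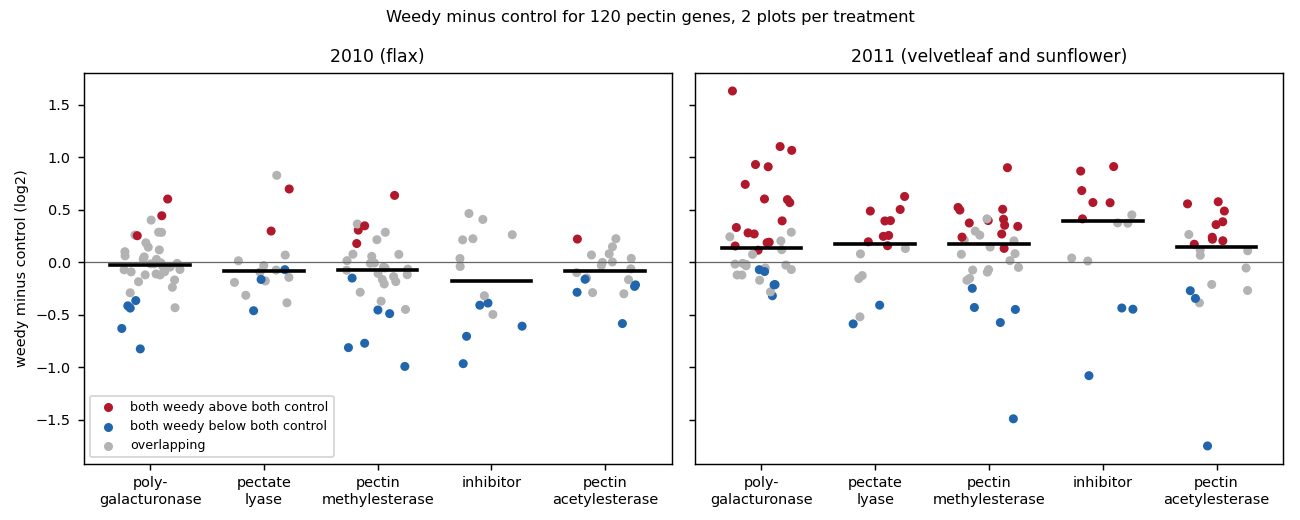
Weedy minus control difference in log2 units for each of the 120 genes by class, in 2010 and in 2011, each from 2 plots per treatment. Red and blue points are genes whose weedy libraries both lie above or both below the control libraries, and black bars are class medians, which lie below 0 in 2010 and above 0 in 2011. No gene passed an adjusted p under 0.05 in either season.

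The authors' deposited table gives Cuffdiff q-values for these 2 seasons, a test that treats the libraries differently from the fit above. At a q under 0.05 in the authors' deposited table, 6 of the 120 genes were called in 2010, 5% against 2.46% of all genes (3 higher, 2.5% against 1.33%, and 3 lower, 2.5% against 1.13%), and 25 in 2011, 20.8% against 7.67%. There 19 of the 25 in the authors' deposited table were higher in weedy plots, 15.8% of the 120 genes against 4.49% of all genes, and 6 were lower, 5% against 3.18%. By class, 8 of the higher genes in the authors' deposited table were polygalacturonases, with 4 methylesterases, 4 inhibitors, 2 pectate lyases and 1 acetylesterase. The 6 lower ones in the authors' deposited table were 2 methylesterases, 2 acetylesterases, 1 inhibitor and 1 pectate lyase, with 0 polygalacturonases. None of the 120 genes carries the authors' label for genes that moved alike in several seasons. How many of all genes carry it was not counted, so nothing particular to the 120 genes follows.

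The 3 largest differences of 2011 with the higher value in weedy plots were those of polygalacturonases. Glyma15g13360 was 1.63 ± 0.24 (SE) higher in weedy plots (limma adjusted p = 0.180; q = 0.00215 in the authors' deposited table), with the library values given above, where both weedy values exceed both control values. Glyma09g03620 held 3.46 and 3.07 in control and 4.10 and 4.63 in weedy libraries of 2011, a difference of 1.10 ± 0.22 (SE; limma adjusted p = 0.196), and 4.14 and 4.31 against 4.02 and 3.70 in 2010. Glyma08g39340 came next, at 1.07 ± 0.26 (SE; limma adjusted p = 0.237), with both weedy values above both control values. Glyma15g14540, matched to the same Arabidopsis PGX3, held 2.31 and 1.98 in control and 2.92 and 3.23 in weedy libraries of 2011, a difference of 0.93 ± 0.17 (SE; limma adjusted p = 0.186). In 2010 its control libraries held 3.42 and 3.55 and its weedy libraries 3.48 and 3.25, which overlap. The inhibitor Glyma07g36590 had the smallest p of the 120 genes in the test of the 2 contrasts against each other. It held 4.21 and 4.22 in control against 3.68 and 3.35 in weedy libraries of 2010, and 3.90 and 4.15 against 4.48 and 4.70 in 2011. The weedy libraries lay below the controls in the first season and above them in the second, and the contrasts differed by 1.27 ± 0.22 (SE; limma adjusted p = 0.279).

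On the other side, the acetylesterase Glyma16g17150 was lower in weedy plots of 2011 by -1.75 ± 0.32 (SE; limma adjusted p = 0.186), and in the authors' deposited table its q for that season is given as 0. In 2010 the weedy libraries also lay under the controls, but by less than the spread, at -0.16 ± 0.32 (SE; limma adjusted p = 0.876). The inhibitor Glyma09g03850 was the lowest of its class in both seasons, at -0.97 ± 0.20 (SE; limma adjusted p = 0.522) in 2010 and -1.08 ± 0.20 (0.186) in 2011. In 2010 the pectate lyase Glyma04g36520 was 0.83 ± 0.52 (SE) higher in weedy plots (limma adjusted p = 0.635), with 2.61 and 2.53 in control and 2.59 and 4.20 in weedy libraries. The difference came from 1 library, weedy replicate 2 of 2010, since the other weedy library lay between the controls.

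Genes with the same Arabidopsis match did not always move together. The plot of copies shows 3 such groups. The 4 soybean matches of PGX3 formed 2 pairs. Glyma09g03620 and Glyma15g14540 were both higher in 2008, by 1.29 ± 0.29 and 1.86 ± 0.22 (SE; limma adjusted p = 0.00415 and 0.000109), and Glyma15g14540 was lower in 2011 than in 2010, by -0.82 ± 0.20 (adjusted p = 0.00965). Glyma05g26390 and Glyma08g09300 rose in 2011, by 2.04 ± 0.25 and 1.55 ± 0.25 (SE; adjusted p = 0.000341 and 0.00116), and differed by -0.07 and 0.07 in 2008 without passing. Over the 12 libraries, which share seasons, Pearson's r between copies ran from -0.46 to 0.96.

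The 4 pectate lyases matched to AT5G63180 also formed 2 pairs, with r between -0.67 and 0.95 over the 12 libraries. Glyma17g13550 held 4.63 and 5.26 in 2008, 3.16 to 3.55 in 2010 and 3.57 to 4.10 in 2011, and Glyma05g02890 had 4.49 and 5.17, then 2.73 to 2.99, then 3.21 to 3.90. Both rose, by 1.42 ± 0.14 and 1.67 ± 0.20 in 2008 and by 0.57 ± 0.13 and 0.62 ± 0.18 in 2011 (SE; limma adjusted p from 3.77e-05 to 0.0209). Glyma06g18370 and Glyma04g36520 fell in 2011 by 1.24 ± 0.27 and 1.27 ± 0.38 (SE; adjusted p = 0.00538 and 0.0225). The call of Glyma04g36520 was lost without control replicate 1, weedy replicate 1 or weedy replicate 2 of 2011, at adjusted p-values of 0.0557 to 0.0726. The 3 methylesterases matched to AT3G43270 instead varied alike, with r from 0.91 to 0.97, and all 3 were higher in 2008, by 1.29 ± 0.14, 1.80 ± 0.20 and 2.83 ± 0.20 (SE; adjusted p from 6.90e-06 to 6.69e-05). The 3 pectate lyases matched to AT4G13710 were likewise higher in 2008 and in 2011, with r from 0.96 to 0.97.

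**Figure D4:**
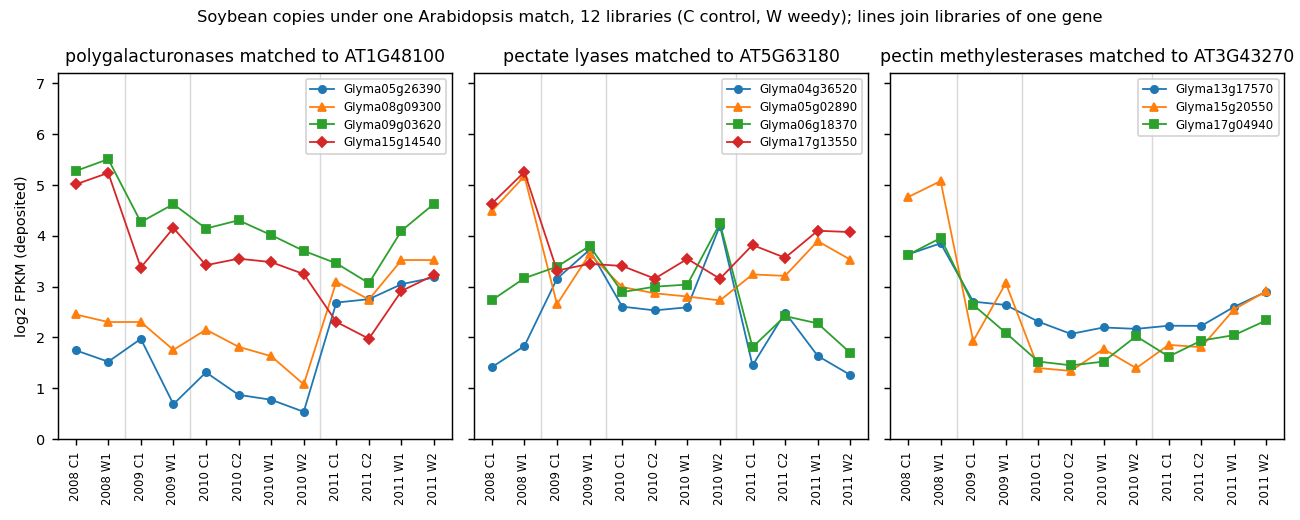
Deposited log2 FPKM of soybean genes that share an Arabidopsis match, in 12 libraries ordered by season and treatment, for 4 polygalacturonases, 4 pectate lyases and 3 methylesterases; lines join the libraries of 1 gene and show no time course. In the first and second panels the copies form 2 pairs with different season patterns, and in the third all copies are highest in 2008.

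Season 2010 against 2009 gave few calls. Of the 120 genes 1 passed, 0.833% against 1.74% of all genes and 0.814% called lower: Glyma15g20550, lower in 2010 by -1.02 ± 0.22 (SE; limma adjusted p = 0.0484). Adjusted p-values of 0.0505 to 0.266 under 14 other settings show how near the threshold it lay. The inhibitors Glyma15g20060 and Glyma06g47740 were next, at -1.22 ± 0.27 each (SE; limma adjusted p = 0.0512 and 0.0515). Values below 0 were found for 94 of the 120 genes. Above 0 lay 21.7% of the 120 genes against 55.3% of all genes, and the medians were -0.25 and 0.03. An unadjusted p under 0.05 (limma) was reached by 33 of the 120 genes, 27.5% against 20.8% of all genes. Of these 33, 30 were lower in 2010, and the directions at that p were not counted for all genes.

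Rows of 18 cm, replicate 2, were compared with rows of 76 cm, replicate 1, in 2010 and 2011. The spacing is inferred from a field that otherwise names reads, and spacing and replicate number cannot be told apart. None of the 120 genes passed and none of all genes did (limma, 0% called). At an unadjusted p under 0.05 there were 18 of the 120 genes, 15% against 7.89% of all genes. Of these 18, 13 were lower in narrow rows, and the directions at that p were not counted for all genes. The smallest p was that of the pectate lyase Glyma20g24670, which held 3.37, 3.21, 2.43 and 2.86 in wide rows and 2.86, 2.64, 2.33 and 2.06 in narrow rows of the matching plots, a difference of -0.50 ± 0.13 (SE; limma adjusted p = 0.454). The highly expressed inhibitor Glyma04g13490 was lower in narrow rows by -0.70 ± 0.18 (SE; adjusted p = 0.464).

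By description or Arabidopsis match, another 133 genes were listed as making, sensing or otherwise modifying pectin, a role not tested here. Of these, 40 were higher and 22 lower in 2008, 30.1% and 16.5% against 24.6% and 27.3% of all genes. In 2011 against 2010, 55 were higher and 4 lower, 41.4% and 3.01% against 20.5% and 20.7% of all genes, and 0 passed for weedy against control. Among the 73 genes of pectin synthesis 28 were higher and 0 lower in 2011, 38.4% and 0% beside those same shares of all genes, including Glyma19g05060, a match to the galacturonosyltransferase GAUT9, by 0.88 ± 0.09 (SE; limma adjusted p = 0.000122), and Glyma08g46210, a match to QUA1, which Arabidopsis needs for homogalacturonan and cell adhesion, by 0.80 ± 0.10 (adjusted p = 0.000327). Among 23 genes of pectin sensing 12 were higher and 1 lower, 52.2% and 4.35%, including Glyma08g27450, a match to the receptor kinase FERONIA, by 1.33 ± 0.19 (SE; adjusted p = 0.000683). In 2008, 8 of the sensing genes were higher and 4 lower. The lowest of them, Glyma13g09420, a match to the wall-associated kinase WAK5, differed by -3.55 ± 0.25 (SE; adjusted p = 7.62e-06). Both matches of the polygalacturonase-inhibiting protein PGIP1 were lower in 2008 too, by -1.69 ± 0.49 and -0.57 ± 0.18 (SE; adjusted p = 0.0153 and 0.0214).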

How the data were processed

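The authors deposited 1 table of log2 FPKM values for 12 libraries, made with the Tuxedo programs on Phytozome gene models per the file headers; TopHat, Cufflinks and Cuffdiff, all at version 1.0, are listed by the submitters' processing notes. Genome build and strand are not given in the sources used here. After sorting, log2 values were identical in all 12 deposited columns (0.00 to 13.50, median 3.22, 10 zeros each), so they had been forced to 1 distribution, which hides any change shared by most genes; no source says if a constant went in before the log. The p-values and q-values that the authors deposited come from Cuffdiff, and their deposited log2 ratio columns hold weedy over control. The table holds no counts, so depth is unknown.

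Of 30498 entries, 39 sharing 19 identifiers were left out; the 30456 genes that reached 1 on the log2 scale in 3 or more libraries were tested. The plan allowed for linear values, and the log2 values were used as deposited. Tests used limma 3.58.1 (R 4.3.3, statmod 1.5.0), with eBayes set to trend and robust, two-sided, with Benjamini-Hochberg adjustment over all genes tested and a threshold of 0.05; the script was tested on simulated data. Weedy against control used season as a covariate; within-season contrasts and row spacing used the 8 libraries of 2010 and 2011; seasons were fitted with treatment. Alternatives were other filters, 1 added before the log, no trend or robust option, each library or year left out, no season covariate, season contrasts within each treatment and a replicate block. Replicates are plots, and those of the same treatment and season also differed in inferred row spacing. The p-values of the within-season weed contrasts measure the spread between such plots. In the fits over all seasons, that spread also holds differences of the weedy minus control contrast between seasons. Each season occurred once, so season p-values do not measure the spread between years. The members and gene lists were chosen with earlier results of these data known, and enzyme classes were assigned from the Arabidopsis match after the files were read. Named genes are, per comparison, the 4 largest rises and falls past the threshold, or else 3 per side by smallest p, and per class the 3 of highest mean and those of widest and narrowest range; further copies and the other pectin genes were named after their values were seen. No identifier matched the reference gene table (0), so no sequence or position is given.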

Additional observations from a re-analysis of the deposited data

Results flagged for a closer look

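In 8 of 88 groups of 6 control or 6 weedy libraries examined (44 named genes), 1 library lay far from the other 5, measured as its gap to the nearest other library over the whole range of the group; in groups with no other structure, chance flags about 1 in 20. That rate is no yardstick here, since each group spans 4 seasons and many of these genes were named for a large season difference. All 8 were control groups. The control library of 2008 was highest for Glyma15g13360 (0.967), Glyma15g20550 (0.828), Glyma18g47130 (0.778), Glyma07g36590 (0.756) and Glyma03g38430 (0.638), and lowest for Glyma09g03850 (0.859). The control library of 2009 was highest for the inhibitor Glyma15g20060 at 4.64, with the next at 3.19 (0.728). Control replicate 2 of 2010 was lowest for Glyma07g05150, a match to Arabidopsis PME3, at 4.31, with the next at 4.67 (0.658).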

How the results depend on the processing

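No result reversed. Of the alternative values for named genes, 779 were the same, 27 lost a call, 10 gained one and 20 moved. Tested values were the same if they kept their direction and side of the threshold. Season differences in control or weedy libraries alone had no test. Those moved if they differed from the main value by the spread between plots of the same treatment and season, or more. All 20 were of this kind. For Glyma03g03460 in 2011 against 2010 the values ran from -2.23 to -0.38 over the settings. Counts in the season contrasts changed with single libraries: leaving out 1 library gave 33 to 53 higher and 8 to 18 lower for 2008 (33 higher without weedy replicate 1 and 8 lower without control replicate 1 of 2008), 0 to 1 higher and 0 to 3 lower for 2010 against 2009, and 41 to 51 higher and 8 to 20 lower for 2011 against 2010 (8 without control replicate 1 or weedy replicate 2 of 2011, 10 without weedy replicate 1 of 2011). Calls over all genes also fell in the fits that gave the lowest of these counts for 2008 and for 2011 against 2010. A minimum mean log2 value of 2 gave 10 lower in 2011, from fewer genes. Without trend and robust options, 0 were lower in 2010 than in 2009. For weedy against control, leaving out 1 library gave 0 to 1 lower. Leaving out the year 2008 gave 1, Glyma09g03850 (-0.94, limma adjusted p = 0.0499), with 24 called among all genes. For the weed contrast of 2011 minus 2010, leaving out 1 library leaves 1 plot of its treatment and season, so calls are not counted. The contrast of Glyma07g36590 ran from 1.11 to 1.44 over the other settings, highest without weedy replicate 1 of 2010. These causes were not tested. Same-numbered plots share the inferred row spacing, but over all genes they did not deviate together (r = -0.05 in 2010 and 0.05 in 2011). With a replicate block, 52 were higher and 15 lower in 2008, and 0 and 0 in 2010 against 2009. The same block gave 47 and 14 in 2011 against 2010, and 0 in every weed contrast. With unknown depth, low values, such as the 33 genes with a mean log2 level under 2, cannot be given a counting error.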
